A study of Capra hircus with 2 samples.

Results

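Fat between the muscle fibres of meat animals is stored in adipocytes, while fibres also hold lipid droplets of their own, and genes of both were read here in goat muscle at 2 stages. The 9 genes described are the adipokines ADIPOQ (NM_174742) and LEP (NM_173928), the fatty acid carrier FABP4 (NM_174314), the transcription factors PPARG (NM_181024) and CEBPA (NM_176784), the lipogenic enzymes ACACA (NM_174224), FASN (NM_001012669) and SCD (NM_173959), and the lipid droplet protein PLIN2 (NM_173980). They were chosen by name, as cattle RefSeq transcript accessions, out of 11663 accessions with a read in either library. Of the 9, 8 were listed with reads in the 6-month library and the same number in the fetal library. The symbols come from the selection rule, since the deposited lists carry accessions alone.

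The tissue was longissimus thoracis, a long back muscle, of Xuhuai goats (Capra hircus), a Chinese breed. One library came from goats 6 months old, and the other from fetuses at day 90 of a gestation of 150 days. Both groups were described by stage alone, with no treatment or genotype. The number of animals behind each library is not given, and the collection text of the 6-month sample repeats that of the fetuses. The 6-month library held 9144138 unique reads and the fetal library 12811117. Each stage thus had 1 library, so no difference below has a replicate check and no p-value is given. Intervals are exact 95% intervals of the read counts, which cover counting error only. The muscle label itself was not checked against muscle markers, as no source used here pairs their symbols with the listed accessions.

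In adipose tissue, PPARG and CEBPA switch on the genes of the mature adipocyte, FABP4 among them, and maintain each other's expression. Mature adipocytes secrete adiponectin, the product of ADIPOQ, and leptin, the product of LEP. Fatty acids are built from acetyl-CoA, which ACACA (acetyl-CoA carboxylase) converts to malonyl-CoA and FASN (fatty acid synthase) extends to palmitate. SCD (stearoyl-CoA desaturase) then puts a double bond into saturated fatty acids, and PLIN2 (perilipin 2) coats lipid droplets in many cell types, muscle fibres included. FABP4 and PPARG are known in endothelial cells and macrophages as well as in adipocytes. In bulk muscle, fewer cells of a type and less RNA per cell cannot be told apart.

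The adipocyte and lipogenic genes did not differ between the libraries in 1 direction. FABP4 and PLIN2 were higher at 6 months, 5.76-fold and 3.08-fold, ACACA and FASN were lower at 6 months, at 0.335 and 0.367 of the fetal level, and PPARG, CEBPA and SCD had ratios under 2 on the deposited RPKM. The lower calls of ACACA and FASN were lost, with the same direction, when the general shift between the libraries was taken out. Of the adipokines, LEP had 1 read in each library. ADIPOQ was listed in neither and is read as 0 reads, though whether it was among the transcripts counted cannot be told. A gene was called higher or lower at 6 months when log2(RPKM + 1) differed by at least 1, provided that its RPKM reached 1 in one of the libraries. That is about 2-fold at high RPKM and more than 2-fold at low RPKM, because of the added 1. RPKM is the authors' level per length, in reads scaled to transcript length in kilobases and to the unique reads of the library. Of the 7 members compared, 2 were called higher at 6 months, where 9.46% of 9705 accessions were called higher, and 2 were called lower, where 35.1% were called lower.

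**Figure D1:**
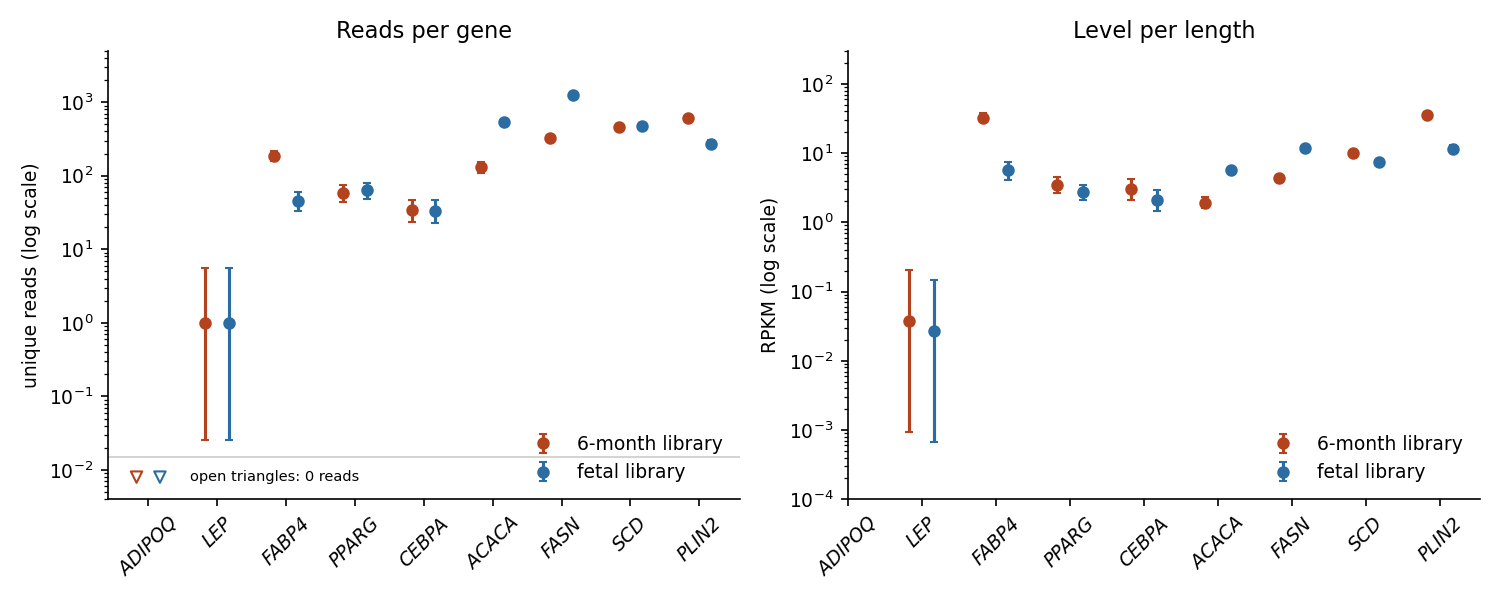
Unique reads (left) and RPKM (right) of the 9 genes in the 6-month and fetal libraries, both on log axes. Points are single libraries, bars are exact 95% Poisson intervals of the reads, and open triangles mark 0 reads. ADIPOQ was listed in neither library and is drawn as 0 reads, and LEP had 1 read in each. FABP4 and PLIN2 lay higher at 6 months, and ACACA and FASN lay lower at 6 months.

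The secreted markers of mature adipocytes were barely detected. LEP had 1 read at 6 months and 1 read in the fetal library, an RPKM of 0.037 and 0.027 over a transcript of 2930 bases. The interval of a single read runs from 0.025 to 5.57 reads, so no ratio is given. A count of 3 reads, the floor set here, would have given LEP an RPKM of 0.112 at 6 months against 0.0799 in fetal muscle. Both LEP values lie under that floor. ADIPOQ was listed in neither library. Because the lists hold accessions with at least 1 read, its absence is read as 0 reads, for which a limit of 3 counts of the total comes to a share of 3.28e-05% at 6 months and 2.34e-05% in fetal muscle. The two-sided interval used for the other genes reaches slightly further for 0 reads, to 3.69 reads. Whether its accession belonged to the set of transcripts counted cannot be told from the lists. Both defining adipokines of the fat cell were thus at 0 or 1 read in either library, and the part of cells other than adipocytes in the values of the remaining genes was not tested.

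FABP4, which carries fatty acids in the cytoplasm of adipocytes, differed most between the libraries among the members. It had 185 reads at 6 months (interval 159 to 214) against 45 reads in fetal muscle (32.8 to 60.2), although the fetal library was the deeper one. Its RPKM was 32.4 at 6 months against 5.62 in fetal muscle. The 6-month level was 5.76-fold the fetal level, with a counting interval of 4.14 to 8.17. On the log2(RPKM + 1) scale the difference was 2.33, and 239 of the 9705 accessions compared (2.46%) had a larger one. FABP4 ranked 1767 of 10850 listed accessions by RPKM at 6 months and 6720 of 11393 in the fetal library.

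By RPKM, taken over the whole transcript, the transcription factors upstream of FABP4 lay below the median of the listed accessions in both libraries. PPARG ranked 6317 and CEBPA 6628 of 10850 at 6 months, and 8222 and 8630 of 11393 in the fetal library. Over only the part of its transcript that reads covered, PPARG was at 13.6 at 6 months against 10.1 in fetal muscle. PPARG had 58 reads and an RPKM of 3.49 at 6 months, against 63 reads and an RPKM of 2.71 in the fetal library. Its ratio of 1.29 had an interval of 0.887 to 1.87, which includes equal levels. CEBPA had 34 reads and an RPKM of 3.02 at 6 months, against 33 reads and an RPKM of 2.09 in the fetal library. Its ratio was 1.44 (0.867 to 2.40). For both factors the interval on the deposited RPKM thus included equal levels, whereas it lay above 1 once the general shift between the libraries was taken out (centred ratios of 1.93 for PPARG, 1.32 to 2.80, and 2.16 for CEBPA, 1.30 to 3.59).

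ACACA and FASN, which catalyse consecutive steps of fatty acid synthesis, were both lower at 6 months. ACACA had 130 reads and an RPKM of 1.93 at 6 months, against 543 reads and an RPKM of 5.74 in the fetal library. FASN had 326 reads and an RPKM of 4.33 at 6 months, against 1245 reads and an RPKM of 11.8 in the fetal library. The fetal level was 2.98-fold the 6-month level for ACACA (2.46 to 3.64) and 2.73-fold for FASN (2.41 to 3.09), so the intervals of both genes overlapped. The differences of -1.20 for ACACA and -1.26 for FASN on the log2(RPKM + 1) scale lie within the body of the distribution: 2699 accessions (27.8%) had a lower value than ACACA and 2529 (26.1%) a lower value than FASN.

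SCD, the desaturase, did not share the lower level of ACACA and FASN. It had 460 reads and an RPKM of 9.85 at 6 months, against 481 reads and an RPKM of 7.35 in the fetal library. The ratio of 1.34 had an interval of 1.18 to 1.53, above 1 and under 2, and SCD was not called. SCD was the most abundant of the 3 enzymes per length at 6 months, whereas FASN was so in the fetal library.

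PLIN2 had 600 reads at 6 months against 273 in fetal muscle. Its RPKM was 35.6 at 6 months against 11.6 in fetal muscle, a ratio of 3.08 (2.66 to 3.57). The difference was 1.54 on the log2(RPKM + 1) scale, and 519 accessions (5.35%) had a larger one. PLIN2 was the member with the highest RPKM at 6 months, at rank 1633 of the accessions listed there, and FABP4 stood next to it.

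**Figure D2:**
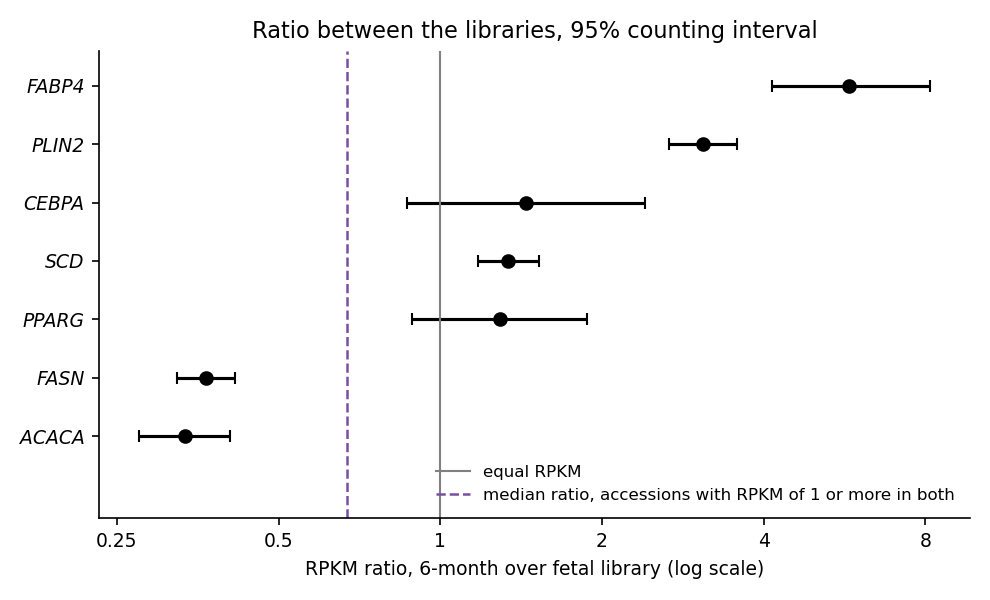
Ratio of RPKM, 6-month over fetal library, for the 7 members with more than 3 reads in a library, on a log axis. Points are the ratios, bars their exact conditional 95% intervals, the solid line marks equal RPKM and the dashed line the median ratio of 0.67 among accessions that reached an RPKM of 1 in each library; FABP4 and PLIN2 lie right of both lines, ACACA and FASN left of both.

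RPKM is relative to the read total of a library, and most accessions lay lower at 6 months. Among the 8201 accessions that reached an RPKM of 1 in each library, the median log2 ratio of 6-month to fetal RPKM was -0.58, so that the fetal level was 1.49-fold the 6-month level. The members compared had a median difference of 0.38 in log2(RPKM + 1), beside -0.61 over all accessions compared. Of the 7 members, 5 had the higher RPKM at 6 months, as did 28.8% of all accessions compared. As the members were chosen by name, and with earlier results of these data known, nothing particular to them is read from this.

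Relative to that shift, that is with 6-month RPKM divided by the median ratio, the calls for the enzymes were lost and those for FABP4 and PLIN2 stayed. ACACA then had a difference of -0.80 and FASN one of -0.78, with centred ratios of 0.501 (0.410 to 0.608) and 0.548 (0.483 to 0.619) that still lay under 1. FABP4 had 2.90 and PLIN2 2.11. SCD, CEBPA and PPARG moved to 0.91, 0.83 and 0.75, under the threshold of 1. The centred ratios of SCD, 2.001 (1.76 to 2.28), and CEBPA, 2.16 (1.30 to 3.59), were nonetheless above 2, as the added 1 shrinks differences at low RPKM. With centring, 2 members were therefore called higher at 6 months, where 17.2% of accessions were, and 0 were called lower, where 22.3% were. The call of ACACA and FASN as lower thus depended on the scaling, while their direction was the same on both scales.

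**Figure D3:**
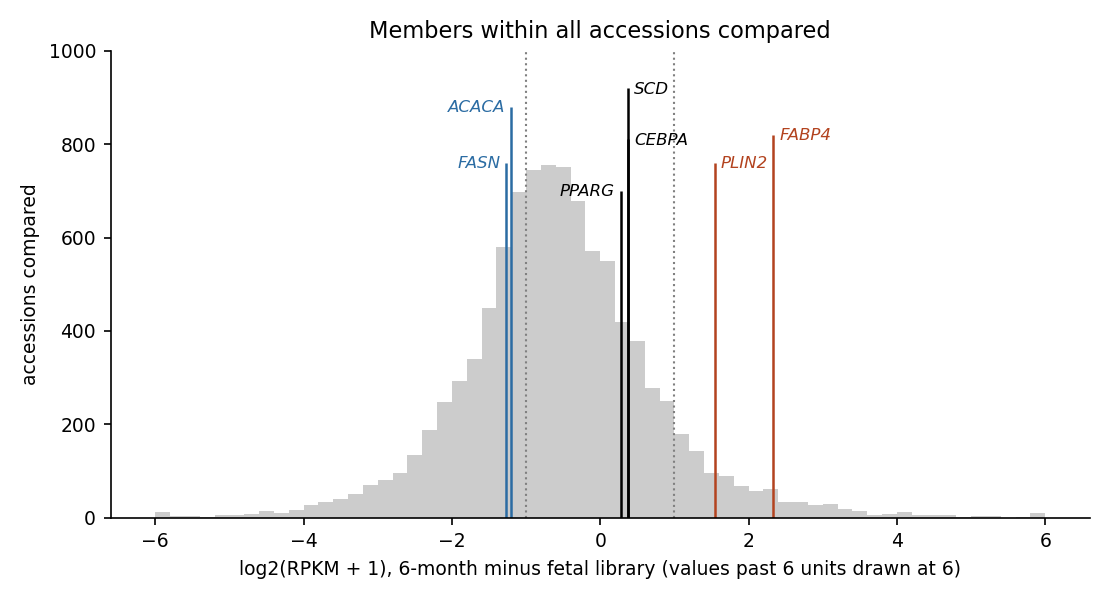
Distribution of the difference in log2(RPKM + 1), 6-month minus fetal library, over the 9705 accessions compared (grey bars, 0.2 units wide), with the 7 members compared as vertical lines of arbitrary height. Dotted lines mark the threshold of 1 unit in either direction. FABP4 (2.33) and PLIN2 (1.54) lie in the right tail, ACACA (-1.20) and FASN (-1.26) lie among many other accessions, and PPARG, CEBPA and SCD lie between 0.28 and 0.38.

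The change of one member relative to another does not depend on how the libraries are scaled. For each of the 21 pairs among the 7 members, the ratio of their 6-month over fetal ratios was computed, with an exact conditional interval. For 17 pairs the 95% interval excluded equal ratios, and for 16 it did so with intervals widened for 21 comparisons. Ordered by these ratios, FABP4 and PLIN2 formed the upper end, PPARG, CEBPA and SCD the middle, and ACACA and FASN the lower end. Relative to FASN, FABP4 was 15.7-fold higher at 6 months than in the fetal library (11.0 to 22.7), and PLIN2 8.39-fold higher (6.92 to 10.2). Relative to PPARG, which is known to activate it, FABP4 was 4.47-fold higher (2.68 to 7.45).

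In the middle, SCD and PPARG had a ratio of ratios of 1.04 (0.699 to 1.55), CEBPA and PPARG one of 1.12 (0.590 to 2.12) and CEBPA and SCD one of 1.08 (0.636 to 1.83). FASN and ACACA had a ratio of ratios of 1.09, with an interval of 0.867 to 1.38. The RPKM of FASN was 2.25-fold that of ACACA at 6 months and 2.06-fold in the fetal library. For these 4 pairs no unequal change was detectable, within the limits that the intervals give. The remaining pair that lost its separation after widening was PLIN2 against CEBPA, at 2.13 (0.945 to 4.80 when widened). FABP4 and PLIN2, although both higher at 6 months, differed from each other by 1.87-fold (1.30 to 2.73, and 1.08 to 3.37 when widened). SCD stood apart from the other enzymes, 3.65-fold higher at 6 months relative to FASN (3.05 to 4.38) and 3.99-fold relative to ACACA (3.16 to 5.07).

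**Figure D4:**
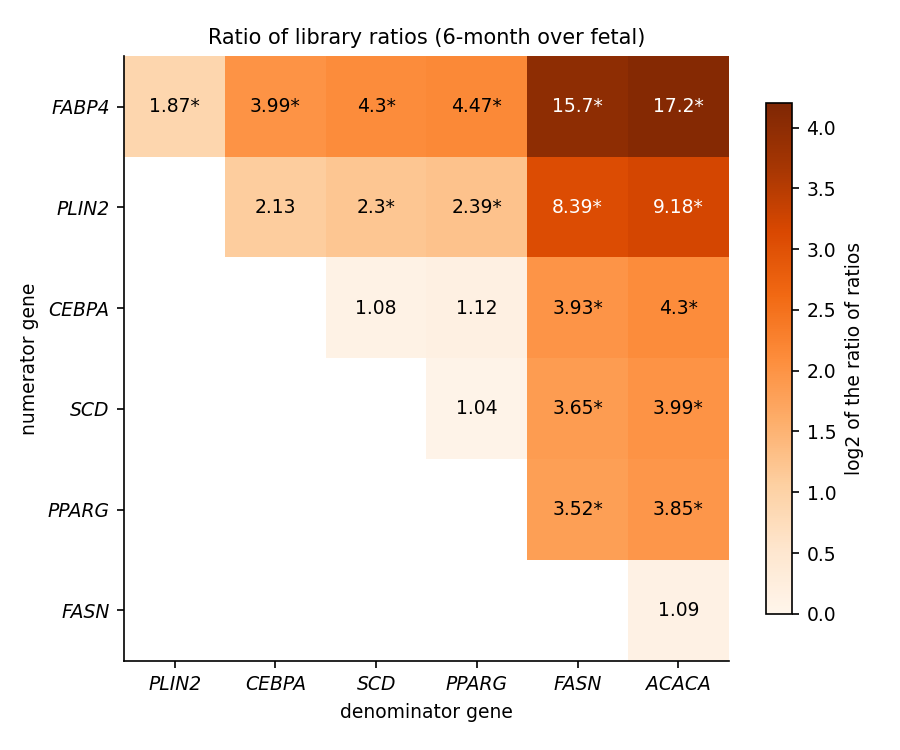
Ratio of library ratios for the 21 pairs of members, numerator genes in rows and denominator genes in columns, each ordered by the ratio of 6-month over fetal RPKM; the colour gives the same value on a log2 scale. A value of 17.2 for FABP4 over ACACA means that FABP4 was 17.2-fold higher at 6 months relative to ACACA, and asterisks mark the 16 pairs whose interval, widened for 21 comparisons, excluded 1.

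The order of the levels per length differed between the libraries. At 6 months it ran PLIN2, FABP4, SCD, FASN, PPARG, CEBPA, ACACA and LEP, by RPKM. The counting intervals of PLIN2 and FABP4 overlapped, as did those of FASN and PPARG, of PPARG and CEBPA, and of CEBPA and ACACA. In the fetal library the order was FASN, PLIN2, SCD, ACACA, FABP4, PPARG, CEBPA and LEP. There the intervals overlapped between FASN and PLIN2, between ACACA and FABP4, and between PPARG and CEBPA. LEP was last in both.

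The summed RPKM of the 9 genes was 90.7 at 6 months against 46.9 in fetal muscle, a ratio of 1.93. PLIN2 and FABP4 made up 39.3% and 35.7% of that sum at 6 months, against 24.7% and 12.0% in the fetal library. FASN made up 4.78% at 6 months against 25.2% in fetal muscle. Among the adipocyte genes (ADIPOQ, LEP, FABP4, PPARG and CEBPA), the sum was 38.9 at 6 months against 10.4 in fetal muscle. Without FABP4 it was 6.55 at 6 months against 4.83 in fetal muscle, a ratio of 1.36 in place of 3.73, so most of the difference in the sum was that of FABP4. Among the genes of lipid synthesis and droplets (ACACA, FASN, SCD and PLIN2), the sum was 51.8 at 6 months against 36.5 in fetal muscle. Without PLIN2 the direction turned, with 16.1 at 6 months against 24.9 in fetal muscle. The 9 genes together took 0.0196% of all reads at 6 months against 0.0210% in fetal muscle, where the long transcripts of FASN and ACACA weigh more in reads than in RPKM.

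The authors also deposited coverage, the percentage of a transcript's length on which reads fell. PPARG stood apart here. Its reads covered 25.7% of the transcript at 6 months against 26.8% in fetal muscle, 467 and 487 of 1815 bases. It had 2.88 and 3.12 read-bases per base, taking a read as 90 bases. Of 1446 accessions with 2 to 4 read-bases per base at 6 months, 9 had lower coverage than PPARG, and the median was 66.4%. Of 1061 such accessions in the fetal library, 19 had lower coverage, and the median was 64.8%. The covered part of PPARG was thus small and of similar size in both libraries, and which bases it held is not recorded in the lists. Its RPKM is computed over the whole length. Computed over the covered length instead, its level was 13.6 at 6 months against 10.1 in fetal muscle, and PPARG took place 3 of 8 in both libraries.

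The other members with more than 1 read were covered about as broadly as transcripts of like depth, with 36.7% to 92.0% of the accessions in their band of depth covered less. CEBPA had a coverage of 61.9% at 6 months against 73.0% in fetal muscle, at nearly the same depth of 2.49 and 2.41 read-bases per base. FABP4 had 83.8% at 6 months against 72.2% in fetal muscle, and PLIN2 92.4% in both. SCD had 83.2% at 6 months against 85.8% in fetal muscle. FASN had 63.7% at 6 months against 84.9% in fetal muscle, and ACACA 62.0% and 90.3%, in each case with the lower coverage in the library with fewer reads. For LEP, the 3.07% in each library is the 90 bases of 1 read.

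**Figure D5:**
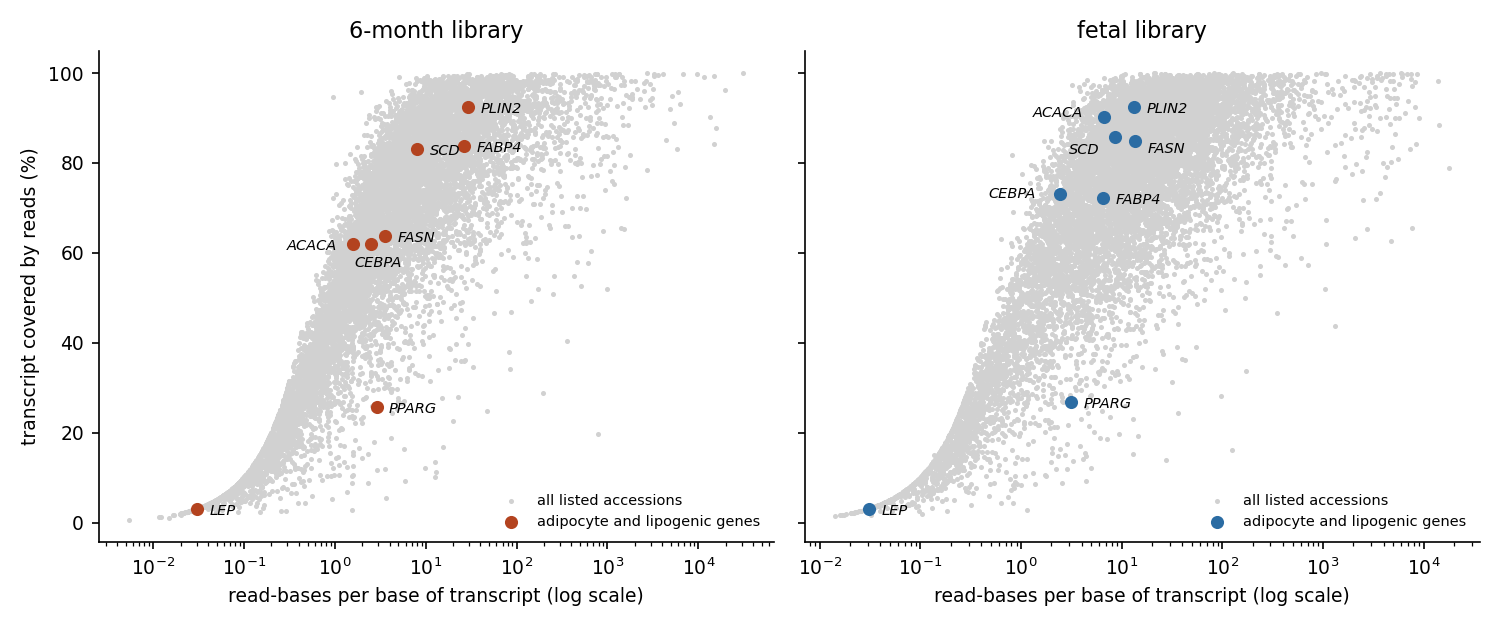
Percentage of the transcript covered by reads against read-bases per base of transcript (log axis) for each listed accession (grey) and the 8 listed members (coloured) in the 6-month library (left) and the fetal library (right). PPARG, at 25.7% and 26.8%, lies at the lower edge of the cloud in both libraries, and the other members lie within it.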

How the data were processed

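For each library the authors deposited RPKM values, read counts (unique reads), lengths and coverage in percent per RefSeq accession, per the file headers. In each file the deposited counts, all whole and above 0, added up to the header total, and RPKM equalled the counts divided by length and total. The sources used here do not name the aligner, strand handling, genome build or transcript set. If goat reads were counted on cattle transcripts, as the members' accessions imply, sequence differences could lower counts unequally between genes; this was not tested. None (0) of the accessions was found in the goat RefSeq table (ARS1.2), so lists of other adipocyte genes and cell type markers could not be used, and no sequence or position is given.

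Differences were computed as log2(RPKM + 1), 6-month minus fetal, over the whole table (minimum RPKM 1). Library ratios have exact conditional binomial (Clopper-Pearson) intervals, reads exact Poisson intervals, and pairs of members exact conditional odds ratio intervals. PCR duplicates are not separate molecules. Where both libraries had at most 3 reads no ratio was formed. The span of a read, 90 bases, was read from the 326 6-month and 235 fetal accessions with 1 read. The calling rule and intervals were tested on simulated counts with planted changes and counting error alone, which is what the intervals assume. Variation between animals and the general shift between the libraries were not simulated, so nothing is learned of either from that test. All 9 members are named, by rule; members, lists and thresholds were chosen with earlier results of these data known. Alternatives covered the pseudocount, minimum, threshold, scaling and the length used. Python 3.11.15, NumPy 2.4.6, pandas 2.3.3, SciPy 1.17.1 and matplotlib 3.10.9 were used.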

Additional observations from a re-analysis of the deposited data

How the results depend on the processing

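No replicate could be left out and no paired analysis was possible because each stage had 1 library. FABP4 ranged from 1.82 to 2.90 and PLIN2 from 1.29 to 2.11 in log2 difference over 9 settings each, the deposited scale included, and both stayed called at the threshold of 1. FASN ranged from -1.43 to -0.78 and ACACA from -1.53 to -0.63, always lower at 6 months, and no member called on the deposited RPKM changed direction. The 2 members called lower became 0 with a pseudocount of 5, with centring on the median or the trimmed mean ratio, and with a threshold of 2 log2 units, which left 1 member called higher. Over all accessions, 918 higher and 3411 lower at 6 months became 1674 and 2162 (median centring), 1673 and 2169 (trimmed mean centring), and 339 and 1051 (threshold of 2), and a pseudocount of 5 gave 1811 lower. The ratio of the members' summed RPKM, 1.93 as deposited, became 2.88 under either centring and 2.27 when the 50 most abundant accessions were left out of the read totals. With length reduced by the read span, FABP4 passed PLIN2 at 6 months, and PLIN2 passed FASN in the fetal library, so the leading places within each library rest on the length used. With the covered length, PPARG took place 3 in both libraries. Depth limits PPARG, CEBPA and LEP, with at most 63 reads in a library, and also FABP4 in the fetal library, with 45 reads.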
